A study of Rattus norvegicus with 3 samples.

Results

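The 10 genes described here encode enzymes that build fatty acids in the cytosol and lengthen and desaturate them at the endoplasmic reticulum: Acss2, Acly, Acaca, Fasn, Elovl5, Elovl6, Scd, Scd2, Fads1 and Fads2. They were chosen by name as steps of the pathway, with earlier results of these data known. A probe counted as theirs through its gene symbol, with older symbols accepted. All 10 were on the array, with 15 probes, out of 15923 named genes. The cells were NR8383, an established line of rat alveolar macrophages, which are the phagocytes of the air spaces of the lung. Cultures were exposed for 24 h to CNT-1 or CNT-2, 2 kinds of single-wall carbon nanotube described as free of impurities, each at 0.1 mg/mL in a solution with 1 mg/mL bovine serum albumin. The control cultures also ran for 24 h, and since their labels say untreated in 1 field and solvent control (BSA) in another, it is unclear whether they received albumin. What distinguishes CNT-1 from CNT-2 is not stated in these sources.

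Cells make fatty acids from acetyl-CoA. The acetyl-CoA comes from citrate or acetate, is carboxylated to malonyl-CoA, and is built into palmitate by fatty acid synthase; elongases and desaturases then turn palmitate and dietary fatty acids into the longer and less saturated chains of membranes and lipid mediators. In many tissues the transcription factors of the SREBP family, which also drive cholesterol synthesis, and the oxysterol receptor LXR raise expression of these genes. In macrophages the same enzymes supply membrane for phagocytosis and precursors of prostaglandins and leukotrienes.

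The deposited table has a single column for each group. The differences below therefore have no replicate check, no test between groups was possible, and "higher" and "lower" describe these columns only. The study's design text states an n of 4 without saying whether a column is a mean, and precision is limited by how few arrays there are. Values are differences from a baseline set by the authors, on a scale presumed to be log2, with higher values read as more RNA. Because that baseline is subtracted per probe, the table says how a probe differs between columns and not how strongly a gene is expressed. A ± below is the SD over the probes of 1 gene, which is technical spread. Over all genes with several probes the median of this SD was 0.08 when CNT-1 was compared with control, 0.19 when CNT-2 was, and 0.17 between the nanotubes. As total RNA of whole cultures was measured, fewer cells of a kind and less RNA per cell cannot be told apart.

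The centring also means that the label of the cells could not be checked by level. Of 16 markers of alveolar macrophages, 13 were measured, and none of their 16 probes had a control value within 0.02 of the negative-control probe, a range here termed background-like. Background-like control values were found for 4 of 10 hepatocyte probes, 3 of 14 of alveolar type 2 cells, 3 of 7 of neutrophils and 1 of 6 of adipocytes, a cell type rich in fatty acid synthesis. They were found for 0 of 8 fibroblast, 0 of 5 endothelial and 0 of 6 lymphocyte probes, so this measure does not set macrophage markers apart from those of other cells. The share of all probes that were background-like in control was not counted. As values are centred per probe, a background-like value does not show that the signal of a probe was at background. With CNT-2 3 of the 13 macrophage markers were higher and 2 lower by 2-fold or more, with a median of 0.49. Of all named genes 10.1% were higher and 6.56% lower by that much with CNT-2, with a median of 0.04. Of the 6 adipocyte markers, 1 was higher and 2 were lower by 2-fold or more with CNT-2, and none was past either fold with CNT-1. Spike-in probes, which report added RNA, lay 0.23 ± 0.10 (SD over 10 probes) above control in the CNT-2 column and -0.05 ± 0.07 from it in the CNT-1 column. Centred on the spike-ins, 4 of the 10 genes in place of 7 were at least 2-fold higher with CNT-2 than in control, and their median was 0.82 in place of 1.04. Set against CNT-1, 2 in place of 4 were. The same centring took the number of all named genes at least 2-fold higher with CNT-2 than in control from 1616 to 1139. It took the median of all named genes from 0.04 to -0.18. The part of the marker genes in the results was not tested.

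Sequences upstream of the genes were examined because the genes share known regulators. RefSeq promoter windows of assembly GRCr8, from 250 bases before to 50 bases after a gene's start, were available for 7 of the 10 genes: Acss2, Acly, Elovl5, Scd, Scd2, Fads1 and Fads2. Of these windows 4 are printed below, for Acss2, which had the largest difference with both nanotubes, for the paralogues Scd2 and Scd, whose values differed from each other, and for Fads1. Each is written 5′ to 3′ along the gene, and capitals mark CCAAT (the box bound by NF-Y) and GGGCGG (the box bound by Sp1) on either strand. The Acss2 window is chr3:164464453-164464752 on the plus strand, that of Scd2 chr1:253118127-253118426 (plus), that of Scd chr1:253231682-253231981 (minus) and that of Fads1 chr1:216252442-216252741 (plus).
Acss2: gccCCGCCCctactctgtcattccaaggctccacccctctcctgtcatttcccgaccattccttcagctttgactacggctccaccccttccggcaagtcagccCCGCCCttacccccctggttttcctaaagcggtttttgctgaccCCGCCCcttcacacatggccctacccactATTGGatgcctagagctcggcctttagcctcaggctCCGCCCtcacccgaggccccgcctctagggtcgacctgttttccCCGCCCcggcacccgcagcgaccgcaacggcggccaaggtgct
Scd2: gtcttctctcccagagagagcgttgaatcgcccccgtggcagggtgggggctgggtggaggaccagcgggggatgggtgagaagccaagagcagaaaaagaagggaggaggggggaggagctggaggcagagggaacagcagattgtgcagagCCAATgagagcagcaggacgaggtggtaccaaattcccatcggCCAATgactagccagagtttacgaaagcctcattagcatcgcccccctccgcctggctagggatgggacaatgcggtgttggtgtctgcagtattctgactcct
Scd: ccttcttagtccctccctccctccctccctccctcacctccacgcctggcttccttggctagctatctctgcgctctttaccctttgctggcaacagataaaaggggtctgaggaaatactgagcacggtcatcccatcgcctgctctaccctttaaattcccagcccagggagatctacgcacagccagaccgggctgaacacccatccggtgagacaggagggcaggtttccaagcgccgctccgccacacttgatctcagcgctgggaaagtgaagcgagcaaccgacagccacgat
Fads1: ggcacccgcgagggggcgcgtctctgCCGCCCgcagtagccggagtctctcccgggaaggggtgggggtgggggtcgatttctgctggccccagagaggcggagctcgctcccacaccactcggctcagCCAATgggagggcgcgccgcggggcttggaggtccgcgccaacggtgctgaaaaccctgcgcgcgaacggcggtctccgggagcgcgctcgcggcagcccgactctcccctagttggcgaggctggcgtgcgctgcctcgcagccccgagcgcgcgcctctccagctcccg

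The window of Acss2 held 1 CCAAT and 5 GGGCGG matches, that of Scd2 held 2 CCAAT matches, that of Fads1 held 1 of each, and that of Scd held neither. Of the windows not printed, that of Elovl5, the lowest of the 10 genes with CNT-2 at -0.11, also held 2 CCAAT matches. That of Acly held 1 CCAAT and 3 GGGCGG matches. That of Fads2, at 1.05 with CNT-2, held 1 GGGCGG match and no CCAAT. Any link between the boxes and the differences was not tested. The nearest CCAAT lay 73 bases before the start of Acss2 and 54 bases before that of Scd2. In all, CCAAT was found in 5 of the 7 windows, against 37.5% of 33469 windows of the same length, and GGGCGG in 4 of 7, against 33.1%. In the related gene lists described below, the shares ran from 38.9% to 83.3% for CCAAT and from 37.5% to 90% for GGGCGG. Neither box therefore sets these genes apart from related ones. The E-box CACGTG stood in 1 of 7 windows, that of Elovl5, against 6.42% of all. The letters TCACNCCAC, a form of the sterol regulatory element bound by SREBP, were in none of the 7 windows and in 1.12% of all. Both strands were searched, and none of these motifs overlapped another in the printed windows. These are matches of letters, and nothing was measured at the sites.

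The first question was how cells with CNT-1 differed from control. Of the 10 genes, 2 were at least 2-fold higher, Acss2 and Elovl6, and none was 2-fold lower; 8 of 10 lay above 0 and the median was 0.49. Among all 15923 named genes the median was -0.04, 1.16% were 2-fold or more higher, 2.15% were 2-fold or more lower, and 42.1% lay above 0. The next question was the same for CNT-2. Here 7 of the 10 were at least 2-fold higher, no member was lower by that much, 9 lay above 0 and the median was 1.04, beside a median of 0.04 over all genes, of which 10.1% were 2-fold or more higher, 6.56% 2-fold or more lower and 53.5% above 0. The 2 comparisons share the control column, so their values are not independent. In CNT-2 the genes Acaca, Fads1 and Fads2 lay between 1.03 and 1.05, just past the 2-fold line. With each column centred on its median, its 75th percentile or its spike-ins the number was 4, namely Acss2, Scd2, Fasn and Elovl6, and after quantile normalization it was 3, namely Acss2, Elovl6 and Scd2.

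**Figure D1:**
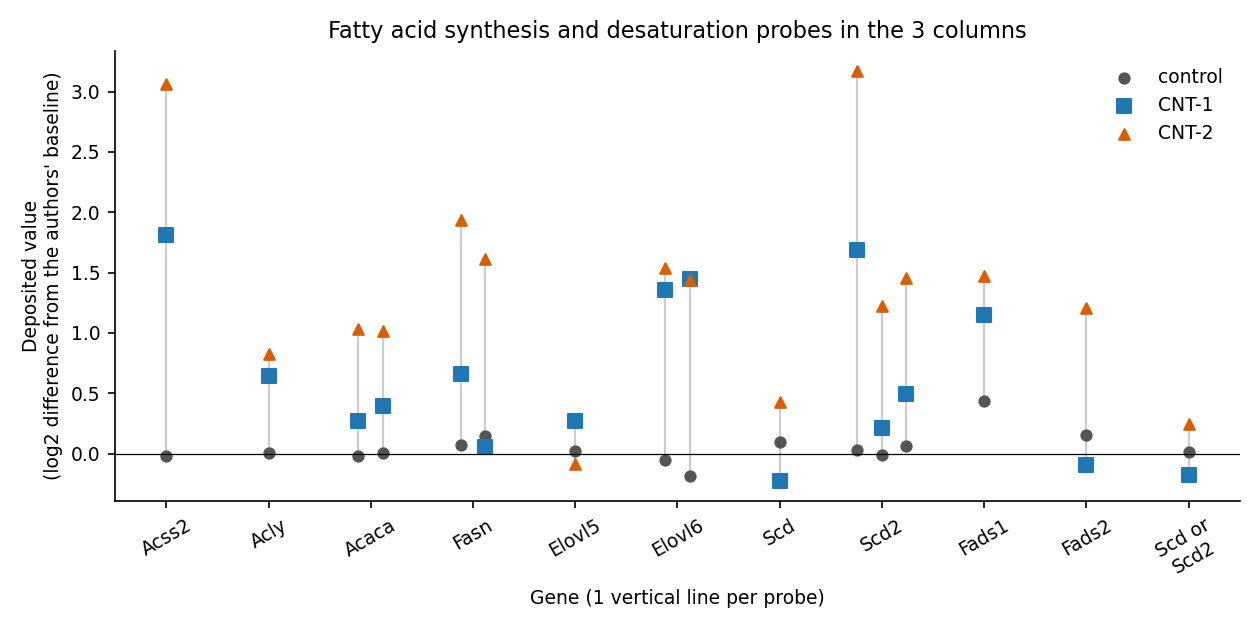
Deposited value of each probe of the 10 genes (vertical axis, log2 difference from the authors' baseline) in the control, CNT-1 and CNT-2 columns; each grey line joins the 3 values of 1 probe, and the last line is the desaturase probe whose gene is not settled. CNT-2 is the highest column for Acss2, Acly, Acaca, Fasn, Scd, Scd2, Fads1 and Fads2, while for Elovl6 both nanotube columns lie close together and for Elovl5 CNT-2 is the lowest column.

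A pair of enzymes supplies cytosolic acetyl-CoA, and their differences were of unequal size. Acss2, which makes acetyl-CoA from acetate, was at -0.02 in control, 1.81 with CNT-1 and 3.06 with CNT-2. The differences from control were thus 1.83 and 3.08, or 3.56-fold and 8.47-fold, and only 16 of all named genes had a larger difference with CNT-1 and 166 with CNT-2. Acly, the citrate lyase that makes acetyl-CoA from exported citrate, was at 0.005 in control, 0.64 with CNT-1 and 0.83 with CNT-2. Both nanotube columns were above control for Acly, at 0.64 and 0.82, and neither reached 2-fold. Each of these genes had 1 probe.

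Acaca, the acetyl-CoA carboxylase that commits acetyl-CoA to fatty acids, was at -0.01 in control, 0.33 with CNT-1 and 1.02 with CNT-2. Its 2 probes agreed, with differences from control of 0.34 ± 0.07 for CNT-1 and 1.03 ± 0.03 for CNT-2. Fasn, the fatty acid synthase that assembles palmitate, was at 0.11 in control, 0.36 with CNT-1 and 1.77 with CNT-2. For CNT-2 both probes lay well above control, at 1.87 and 1.46, whereas for CNT-1 they lay on opposite sides of 0, at 0.59 and -0.10. The second of these probes was background-like in the control column but not in the CNT-1 column, so the size of its difference may depend on the background level. No direction can therefore be given for Fasn with CNT-1, where its mean was 0.25 ± 0.49.

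The elongases differed. Elovl6, which lengthens palmitate to stearate, was at -0.12 in control, 1.40 with CNT-1 and 1.49 with CNT-2, so both nanotube columns were high and nearly level. The differences from control were 1.52 ± 0.16 and 1.61 ± 0.02 (2 probes), and 49 named genes had a larger difference with CNT-1. Elovl5, which lengthens polyunsaturated chains, was at 0.03 in control, 0.27 with CNT-1 and -0.09 with CNT-2. Its 3 columns lay within a narrow range, and from 1 probe the differences from control were 0.25 and -0.11.

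Scd and Scd2 are neighbouring genes for stearoyl-CoA desaturases, which place the first double bond into saturated chains and so make oleate and palmitoleate. The platform's older names are crossed here: 3 probes it names Scd carry a RefSeq accession that now belongs to Scd2, and its single Scd1 probe carries that of the gene now called Scd. Named by accession, Scd2 was at 0.03 in control, 0.80 with CNT-1 and 1.95 with CNT-2. All 3 of its probes lay above control with both nanotubes, but they disagreed in size: with CNT-1 they were at 1.66, 0.23 and 0.43, and with CNT-2 at 3.14, 1.24 and 1.39. The mean differences were 0.77 ± 0.77 and 1.92 ± 1.06, and the median over the probes was 0.43 and 1.39. One probe therefore sets a large part of the mean, while the others still lay past 2-fold with CNT-2.

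Scd itself was at 0.10 in control, -0.22 with CNT-1 and 0.43 with CNT-2, a difference from control of -0.32 and 0.33 from 1 probe. It was thus below control with CNT-1 and above it with CNT-2, and with 75th percentile centring the CNT-2 value was -0.11. The negative-control probe was itself at 0.157 in control, -0.111 with CNT-1 and 0.053 with CNT-2. The direction of Scd with CNT-1 is therefore not secure. A further probe named Scd by the platform carries an Ensembl transcript accession and could belong to either gene. That probe was at 0.02 in control, -0.18 with CNT-1 and 0.25 with CNT-2, and it was counted under neither. Read by the platform's names, 4 probes would be Scd, with 0.53 for CNT-1 and 1.5 for CNT-2, so the values of a gene called Scd in this table depend on whether the names were updated.

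Fads2, Elovl5 and Fads1 act in that order in making arachidonic acid and related polyunsaturated fatty acids, with Fads2 as the rate-limiting desaturase and Fads1 as the later one. Fads2 was at 0.16 in control, -0.10 with CNT-1 and 1.21 with CNT-2, so only the CNT-2 column was high. Its 1 probe was background-like in both the control and the CNT-1 columns. The difference of 1.05 for CNT-2 may therefore depend on the background level, and the -0.25 for CNT-1 shows no direction. Fads1 was at 0.44 in control, 1.15 with CNT-1 and 1.47 with CNT-2. Its control value lay further from the baseline than that of any other of the 10 genes, and the differences were 0.71 for CNT-1 and 1.03 for CNT-2. Without subtracting the control these would be 1.15 and 1.47, and after quantile normalization the CNT-2 difference was -0.20. With the value of Elovl5 given above, the first and the last of these 3 steps were at least 2-fold higher with CNT-2 and the middle step was not. Neither call held under the other scalings, where Fads2 ranged from 0.23 to 0.96 and Fads1 from -0.20 to 0.94.

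In order of the difference from control, the 10 genes with CNT-1 ran Acss2, Elovl6, Scd2, Fads1, Acly, Acaca, Elovl5, Fasn, Fads2 and Scd. With CNT-2 the order was Acss2, Scd2, Fasn, Elovl6, Fads2, Acaca, Fads1, Acly, Scd and Elovl5. The neighbours Scd2, Fads1 and Acly with CNT-1, and Fads2, Acaca and Fads1 with CNT-2, each lay closer to the next than the median probe SD, so their order is not resolved. With CNT-1 this also holds for Elovl5 and Fasn, and for Fads2 and Scd. With CNT-2 the order of Scd2, Fasn and Elovl6 is not resolved either. The probes of Scd2 spread there more widely than its distance from each gene from Fasn to Fads1 in that order. With CNT-1 they spread more widely than its distance from each gene from Elovl6 to Fasn. The probes of Fasn spread with CNT-1 more widely than its distance from Fads1, Acly and Acaca. These places of Scd2 and Fasn are therefore not resolved.

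**Figure D2:**
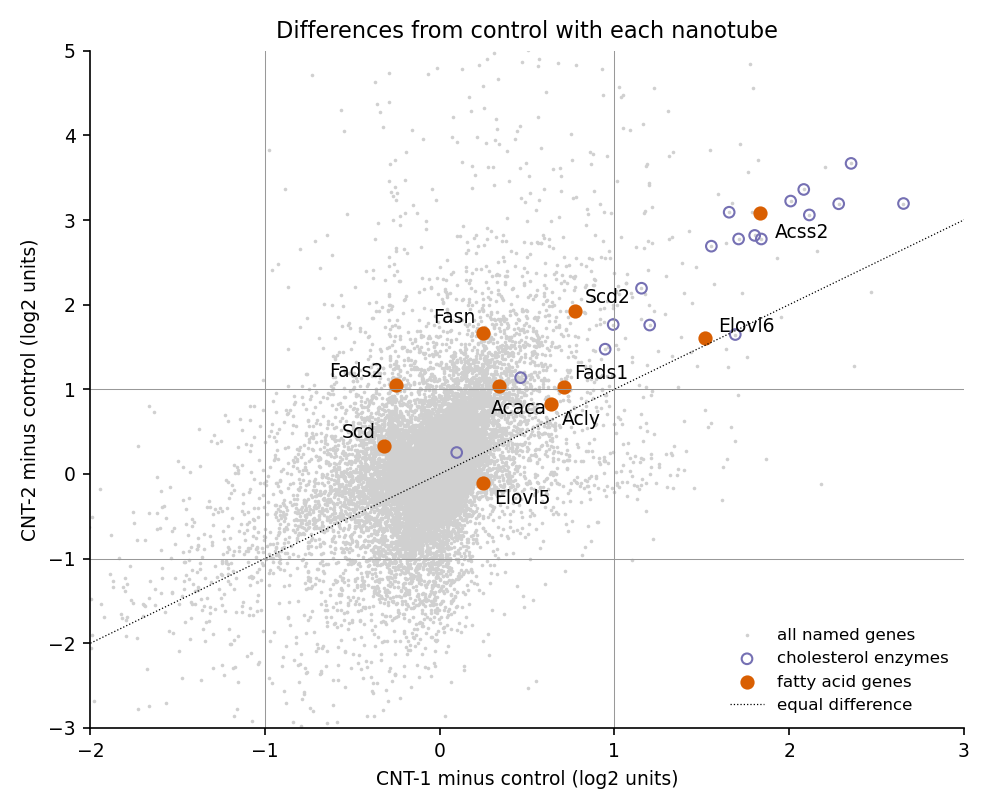
Difference from control with CNT-1 (horizontal axis) against that with CNT-2 (vertical axis), both in log2 units, for the 10 fatty acid genes (filled), 18 cholesterol enzymes (open) and all named genes (grey, 89 of them outside the axes); thin lines mark 2-fold and the dotted line equal differences. Acss2 lies among the cholesterol enzymes, Elovl6 lies near the line of equal differences, and Fasn and Fads2 lie high for CNT-2 and near 0 for CNT-1.

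The columns of the 2 nanotubes were also compared directly. Of the 10 genes 4 were at least 2-fold higher with CNT-2 than with CNT-1, none was 2-fold lower, and the median was 0.67. Over all named genes the median was 0.15, with 9.32% higher and 4.65% lower by 2-fold or more. Fasn was at 1.42 ± 0.20, Fads2 at 1.30, Acss2 at 1.25 and Scd2 at 1.15 ± 0.29. As the Fads2 probe was background-like in the CNT-1 column, its value and its place in this order may depend on the background level. Acaca followed at 0.69 ± 0.09, Scd at 0.65, Fads1 at 0.32 and Acly at 0.19. Elovl6 at 0.09 ± 0.14 did not differ beyond its probe spread, and Elovl5 at -0.36 was the only gene of the 10 below 0. These values moved with the scaling of the columns: the number at least 2-fold higher was 1 with 75th percentile centring, Fasn, and 2 with spike-in centring, Fasn and Fads2. It was 0 after quantile normalization, which gives columns of unequal spread the same spread, and Acss2 was then at -0.89 and Scd2 at -0.07.

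Enzymes of cholesterol synthesis, which respond to the same SREBP factors, stood higher than the fatty acid genes. The 8 measured enzymes from mevalonate to squalene had medians of 1.77 with CNT-1 and 2.73 with CNT-2, and the 10 from lanosterol to cholesterol 1.68 and 2.80. With CNT-1 6 of 8 and 8 of 10 of them were at least 2-fold higher, against 2 of 10 fatty acid genes and 1.16% of all named genes. With CNT-2 the numbers were 8 of 8 and 9 of 10, against 7 of 10 fatty acid genes and 10.1% of all named genes. The 8 include Acat2, named here after its values were seen, at 1.65 ± 2.30 with CNT-2. Its 2 probes disagreed there, so its place in the count is not secure. Idi1, Fdft1, Sqle and Fdps, of the first group, lay between 1.84 and 2.28 with CNT-1 and between 2.78 and 3.36 with CNT-2. Sc5d, Tm7sf2, Msmo1 and Lss, of the second, lay between 1.66 and 2.65 with CNT-1 and between 3.09 and 3.67 with CNT-2. These are the 4 largest of each group with CNT-2, whereas with CNT-1 Lss was not among the 4 largest of its group. With CNT-1 the whole groups ran from 0.95 to 2.28 and from 0.10 to 2.65. With CNT-2 they ran from 1.47 to 3.36 and from 0.25 to 3.67. Of the 10 fatty acid genes, Acss2, at 1.83 and 3.08, was the only 1 above the medians of both groups with both nanotubes. The difference between the lists has no test with 1 column per group.

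Regulators of the pathway were read next. Srebf1, which encodes the SREBP forms most tied to fatty acid genes, was at 0.07 ± 0.28 with CNT-1 and 0.47 ± 0.20 with CNT-2 (3 probes). Srebf2, which encodes the form most tied to cholesterol genes, was at 0.84 ± 0.24 and 0.80 ± 0.17 (2 probes), so it lay about equally far above control with both. Scap, the escort that carries SREBP to the Golgi, was at -0.01 and -0.04, close to control in both columns. Insig1, which holds SREBP and Scap in the endoplasmic reticulum and is itself an SREBP target, was at 2.20 ± 0.12 and 3.62 ± 0.20 (4 probes). Its relative Insig2 was at 0.35 ± 0.05 and 1.62 ± 0.44 (2 probes).

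The LXR genes Nr1h3 and Nr1h2 showed small differences. Nr1h3 was at 0.29 and 0.31, and Nr1h2 at 0.04 and 0.21. Mlxipl, which encodes the carbohydrate-responsive factor ChREBP, was below control with both nanotubes, at -0.66 and -1.17. Of the 23 measured regulators 1 was at least 2-fold higher with CNT-1 and none lower, with a median of 0.07. With CNT-2 4 were higher and 2 lower, and the median of 0.31 became -0.13 under 75th percentile centring. Of all named genes 1.16% were at least 2-fold higher with CNT-1. With CNT-2 10.1% of them were higher and 6.56% lower by that much. The regulators past 2-fold with CNT-2 were the following. Those higher were Insig1, Insig2, Mid1ip1 at 1.72 ± 0.12, an activator of acetyl-CoA carboxylase, and Prkab2 at 1.36, a subunit of the kinase AMPK, which restrains that enzyme. Those lower were Mlxipl and Usf1 at -1.25, an E-box factor of the Fasn promoter. Mid1ip1, Prkab2, Usf1 and, in the paragraphs that follow, Acss1, Slc27a4, Slc27a3 and Lpcat4 are named to complete a count, after their values were seen.

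Genes that supply acetyl-CoA and NADPH were mixed. Of 15 measured, 1 was at least 2-fold higher with CNT-1 and 4 with CNT-2, against 1 lower with CNT-2, and the medians were 0.08 and -0.13. Of all named genes 10.1% were higher and 6.56% lower by 2-fold or more with CNT-2, and 1.16% were higher with CNT-1. Aacs, which activates acetoacetate in the cytosol, was at 1.39 with CNT-1 and 2.49 with CNT-2. Slc25a1, the mitochondrial carrier that exports the citrate used by Acly, was at 0.97 and 1.498. Me1, the cytosolic malic enzyme that yields NADPH, was at -0.09 ± 0.02 and 1.41 ± 0.27 (2 probes), so it was high with CNT-2 only. Mpc1, a subunit of the mitochondrial pyruvate carrier, was at 0.24 and 1.18. Acss1, the mitochondrial relative of Acss2, lay on the other side, at -0.79 ± 0.09 and -1.02 ± 0.68 (3 probes).

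The other elongases, desaturases and partners of the elongation cycle had medians of 0.04 and -0.01 over 17 genes. None was past 2-fold with CNT-1, and 2 were higher and 2 lower with CNT-2, beside 10.1% and 6.56% of all named genes. Elovl1, an elongase of very long saturated chains, was at 0.55 ± 0.01 and 1.68 ± 0.05 (2 probes), and Elovl7 was at 0.19 and 1.65. Fads3, the third gene of the Fads cluster, was at -0.14 with CNT-1 and -1.90 with CNT-2, below control where its relatives Fads1 and Fads2 were above it. Aamdc, listed here although it is no elongation enzyme, was at -0.46 and -1.54.

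**Figure D3:**
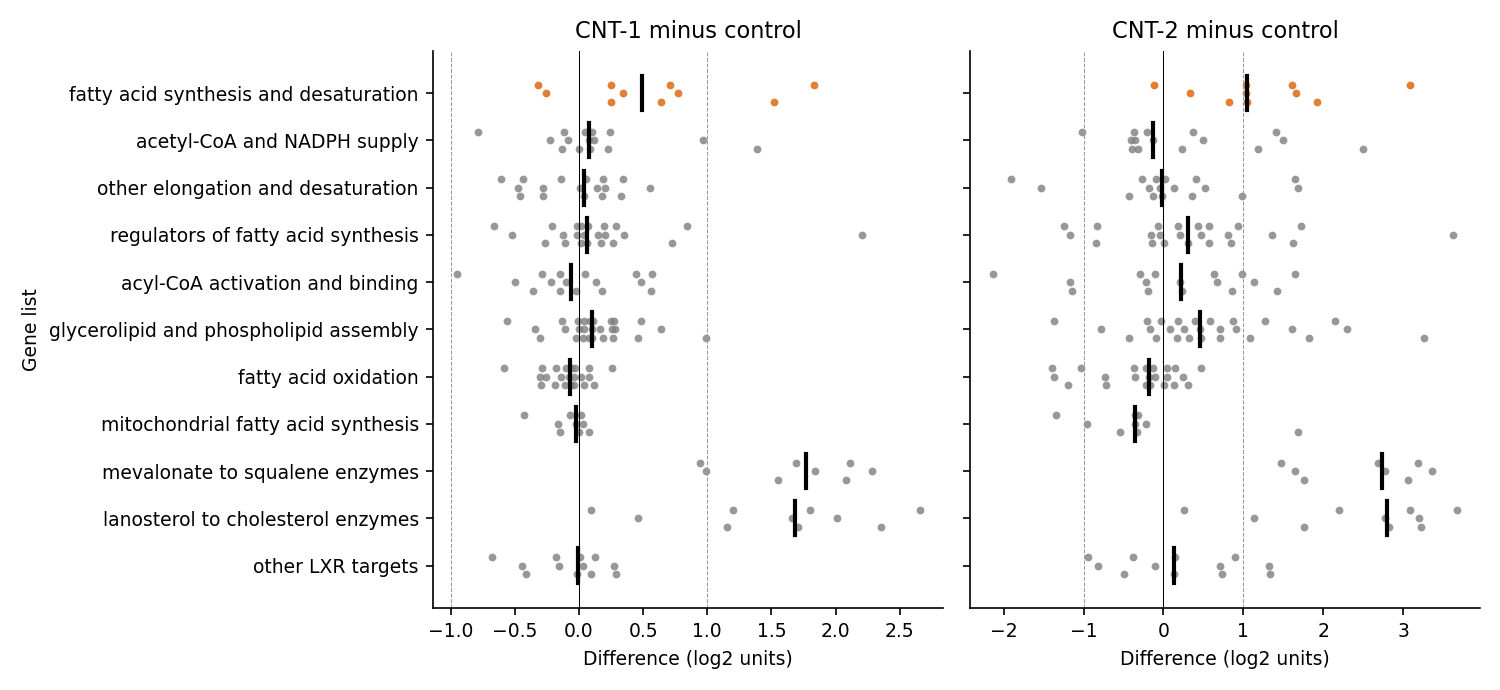
Differences from control (horizontal axes, log2 units; the scales of the 2 panels differ) for CNT-1, left, and CNT-2, right; each point is a gene, thick bars are list medians and dashed lines mark 2-fold. The fatty acid list has medians of 0.49 and 1.04, between the cholesterol lists, with medians from 1.68 to 2.80, and the other lists, with medians from -0.36 to 0.46.

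Steps that use fatty acids were mixed. Of 16 genes of acyl-CoA activation and binding none was past 2-fold with CNT-1. With CNT-2 3 were higher and 3 lower, beside 10.1% and 6.56% of all named genes. The list medians were -0.06 and 0.22, the latter -0.22 with 75th percentile centring. Acsl4, an acyl-CoA synthetase that prefers arachidonic acid, was at 0.56 ± 0.10 and 1.65 ± 0.22 (2 probes), and Acsl5 at 0.45 and 1.43. The transport protein genes Slc27a1 and Slc27a3 were at -1.17 ± 0.02 (2 probes) and -1.14 with CNT-2, whereas Slc27a4 was at 1.14 ± 0.13 (2 probes). Acsbg1 was at -0.50 and -2.13.

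Glycerolipid and phospholipid assembly had medians of 0.10 with CNT-1 and 0.46 with CNT-2 over 27 genes, the latter 0.02 with 75th percentile centring. None was past 2-fold with CNT-1, and 7 were higher and 1 lower with CNT-2, beside 10.1% and 6.56% of all named genes. Lpcat1, which remodels phosphatidylcholine and serves surfactant lipid in the lung, was at 0.46 ± 0.04 and 3.26 ± 0.23 (2 probes). Gpat3, which starts glycerolipid synthesis, was at 0.04 and 2.30, the choline kinase Chka at 0.64 and 2.15, and Pcyt2, of phosphatidylethanolamine synthesis, at 0.99 and 1.83. Lpcat4 was at -0.56 and -1.38.

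Genes of fatty acid oxidation, the opposite process, had medians of -0.07 and -0.18 over 22 genes. Here 0 were at least 2-fold higher with either nanotube, and 0 with CNT-1 and 4 with CNT-2 were at least 2-fold lower. The 4 were Hadh at -1.39 ± 0.12 and Acadvl at -1.04 ± 0.08 (2 probes each), both dehydrogenases of mitochondrial beta-oxidation, Cpt2, which re-forms acyl-CoA inside mitochondria, at -1.37, and Ehhadh, of the peroxisomal pathway, at -1.19. With CNT-1 the same genes lay between -0.58 and -0.26. As reported, 6.56% of all named genes were 2-fold or more lower with CNT-2 and 10.1% were higher. The CNT-2 count of lower oxidation genes was 6 with 75th percentile centring and 0 after quantile normalization. Under these scalings 2295 and 544 of 15923 named genes were lower.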

How the data were processed

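Gene expression was measured in 3 groups of NR8383 cultures (control, CNT-1 and CNT-2) on 1-colour Agilent arrays with Cy3-labelled RNA, per the labels' protocols. Per the submitters' processing notes, Agilent Feature Extraction 10.7.3.1 was used. The deposited table holds 41103 probes and 1 column per group. Its values were taken as log2 differences, centred by the authors, probe by probe, on an unstated baseline: they have both signs, with column medians of 0.01, -0.05 and 0.06, and range from -5.71 to 8.82. The log base, normalization and direction are not stated in these sources. Natural log values would move the 2-fold line.

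Of the probes 20932 had 1 platform symbol, 0 several and 20171 none. RefSeq accessions (GRCr8) named 17424, 3101 kept a current symbol, 396 older symbols were updated, 8 stayed unmatched, and 3, ambiguous between 2 genes, were left out. Differences between columns were taken per probe and averaged per gene (Python 3.11.15, pandas 2.3.3), checked on simulated data. At least 2-fold means at least 1 log2 unit. No test was possible with 1 column per group. Named were all members, 8 regulators, and from each other list up to 4 genes past 2-fold with either nanotube, by size. The members and lists were chosen with earlier results of these data known. Alternatives were other scalings, probe summaries, namings, thresholds and filters.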

Additional observations from a re-analysis of the deposited data

How the results depend on the processing

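Of 108 alternative values for the medians and counts of the 10 genes, 86 stayed within the median probe SD, or within 1.5 times for counts. This tally is raised by the counts of 2-fold lower genes, which were 0 as reported. They stayed 0 in 13 of 13 alternatives with CNT-1, 13 of 13 with CNT-2 and 11 of 12 between the nanotubes. The medians stayed in 7 of 11, 6 of 11 and 7 of 10. The CNT-1 median of 0.49 was 0.38 with the median over probes, 0.27 with the probe nearest to 0, 0.61 with only the probes within 0.1 of 0 in the control (8 genes) and 0.58 after quantile normalization; its count of 2 higher genes was 5 at 1.5-fold and 4 if the scale is the natural log. The CNT-2 median of 1.04 was 0.60 with 75th percentile, 0.82 with spike-in and 0.56 with quantile scaling, 1.34 without subtracting the control and 1.31 with probes near 0 only; its count of 7 was 4 with median, 75th percentile and spike-in centring and 3 with quantile normalization. For CNT-2 minus CNT-1 the median of 0.67 was 0.29, 0.40 and -0.24 with 75th percentile, spike-in and quantile scaling, the count of 4 higher genes was 1, 2 and 0, and quantile normalization gave 1 gene lower, Elovl6.

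Among differences of at least 1, quantile normalization reversed Acss2 (-0.89), Scd2 (-0.066) and the lanosterol to cholesterol median (-0.77) in CNT-2 minus CNT-1, and Fads1 (-0.20) in CNT-2 minus control. In CNT-2 minus CNT-1 it also turned smaller values, the mevalonate to squalene median (0.92 to -1.10), Elovl6 (0.09 to -1.14), Fads1 (0.32 to -0.74) and Acly (0.19 to -0.41); by construction it forces equal spread on columns of unequal spread. The scalings moved the median of all genes by -0.09, -0.44, -0.02 and -0.23 in CNT-2 minus control (median, 75th percentile, quantile and spike-in). Counts over all genes moved by over 1.5 times as well: with CNT-2, 838 genes were higher and 2295 lower with 75th percentile centring, and 864 and 544 after quantile normalization, against 1616 and 1045. With CNT-1 the counts were 588 and 589 after quantile normalization, against 184 and 342, and 118 were lower with probes near 0 only. For CNT-2 minus CNT-1 they were 768 and 1563 with 75th percentile centring, 915 and 1245 with spike-in centring, and 436 and 331 after quantile normalization, against 1484 and 740. Counting the unsettled desaturase probe under Scd2, an alternative chosen after seeing the data, gave Scd2 0.53 and 1.5 against control, and under Scd it gave Scd -0.26 and 0.28. No paired analysis was possible because each group has 1 column.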

Other observations

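Mitochondria hold a separate fatty acid synthesis pathway, which makes the precursor of lipoic acid. Its 9 genes had a median of -0.02 with CNT-1, with none past 2-fold, and of -0.36 with CNT-2, with 8 of 9 below 0. Of all named genes 53.5% lay above 0 with CNT-2. Mecr, the last reductase of each cycle, was at 1.68 with CNT-2 and Lipt1, a lipoyl transferase, at -1.34, while they were at 0.02 and -0.43 with CNT-1. The CNT-2 median lay below 0 under all 4 scalings run, from -0.80 to -0.13. The median of all named genes moved as well, from -0.40 to 0.02 under the same scalings.

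LXR targets other than the fatty acid genes had medians of -0.004 with CNT-1 and 0.14 with CNT-2 over 12 genes, the latter -0.30 under 75th percentile centring and -0.09 under spike-in centring. None was past 2-fold with CNT-1, except 1 higher after quantile normalization. With CNT-2 2 were at least 2-fold higher and none was lower, beside 10.1% and 6.56% of all named genes. The 2 were the cholesterol exporter Abca1 at 1.33 and the apolipoprotein gene Apoc4 at 1.32. With CNT-2 the counts of higher and lower genes were 2 and 1 with median centring, 0 and 2 with 75th percentile centring, 2 and 2 with spike-in centring, and 1 and 0 after quantile normalization.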
